A study of Mus musculus with 24 samples.

Results

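The insulin-like growth factor (IGF) system of an osteocytic cell line was described through 9 genes: the ligands Igf1 and Igf2, the receptor Igf1r, and the binding proteins Igfbp2, Igfbp3, Igfbp4, Igfbp5, Igfbp6 and Igfbp7. A gene entered through the row (probe set) of the deposited table that carries its symbol and no other, and each of the 9 had 1 such row, out of 35556 rows and 19938 genes with a row of a single symbol. A row was tested if it reached the 40th percentile of its array on at least 3 arrays, which left 14489 genes and 8 of the 9 members. Igf1 reached that level on 0 arrays, so its values are given as a description. The probe sets are 10365559 for Igf1, 10569344 for Igf2, 10554094 for Igf1r, 10347277 for Igfbp2, 10384223 for Igfbp3, 10381096 for Igfbp4, 10355500 for Igfbp5, 10427125 for Igfbp6 and 10530841 for Igfbp7.

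Expression was measured on 24 arrays of total RNA from MLO-Y4, a single mouse line with osteocyte features that all groups share. Each of 8 groups had 3 arrays and joined an antibody to an environment. Cells of the IgG arm received irrelevant rabbit IgG at 1:50, and cells of the E2 arm Cx43(E2), an antibody that blocks hemichannels of connexin 43, at 1:50 (28 µg/ml), added in 35 mm dishes for 30 min at 37 °C with 5% CO2. The environment was an incubator (C), or a place on a platform called 1g, 2g or ug, in a high magneto-gravitational field (HMGE in the labels), in which a magnet's force adds to or offsets gravity. How long the cells stayed there is not given in the sources used here. The protocol text is the same for all samples and does not settle whether E2 cells also received IgG. The study asked how HMGE alters expression in these cells and what blocking the hemichannels does to it.

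IGF-1 and IGF-2 are secreted growth factors that act through the receptor tyrosine kinase IGF1R, and signal onward through insulin receptor substrates, PI3 kinase and AKT. The binding proteins hold the ligands in the extracellular space, and proteases such as pappalysin (PAPP-A) release them by cleaving Igfbp2, Igfbp4 and Igfbp5 proteins. In bone the system is known for its response to mechanical load, Igf1 for its part in bone formation, and Igfbp5 as a binding protein stored in the mineralized matrix.

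All values are log2 intensities, with array medians between 6.48 and 6.65, and the number of arrays limits the precision. Arrays of an arm whose titles carry the same number, 4 in each case, form a title set here, such as IgG 2 or E2 3. Principal component 1, with 44.6% of the variance of all tested genes, parted sets IgG 1, IgG 2 and E2 3 (below 0) from sets IgG 3, E2 1 and E2 2 (above 0). Within an arm, all 36 pairs of arrays with the same number deviated together from their group means (correlation across genes above 0.1). Of pairs with different numbers, 23 of 72 did so. Tests within an arm were therefore also run with the set as a block. No label says that replicates or sets were separate cultures, so p-values measure the spread between these arrays. Of the osteocyte markers, Pdpn (12.70), Capg (12.45) and Gja1 (11.68) were bright. Cd44 (9.08), Sost (7.07) and Fgf23 (7.04) also passed the filter. Dmp1 (4.74), Phex (4.61) and Mepe lay at about the 20th percentile of the arrays or under it. Markers of other cell types were mixed: 4 of 6 measured macrophage markers passed the filter, 3 of 5 endothelial, 3 of 5 chondrocyte, 3 of 5 adipocyte and 5 of 5 muscle markers. Ptprc (5.12), Adgre1 (4.58), Emcn (4.39) and Adipoq (4.34) were dim, while Fabp4 (10.05), Sox9 (9.91), Cd14 (8.91), Cd68 (8.66) and Acta1 (8.48) lay above the median level of tested genes (8.41).

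Among the 9 genes, Igfbp5 stood apart. It differed by 1.00 log2 between the lowest and the highest title set, while its means over the 8 groups stayed within 0.09 of each other. The set means of the ligands, the receptor and the other binding proteins spanned 0.06 (Igfbp7) to 0.29 (Igfbp2), against 0.25 for the median gene. No member passed the test at any platform position against the incubator, in either arm, where limma, a linear model with moderated variances, called 0% of all genes (adjusted p below 0.05).

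**Figure D1:**
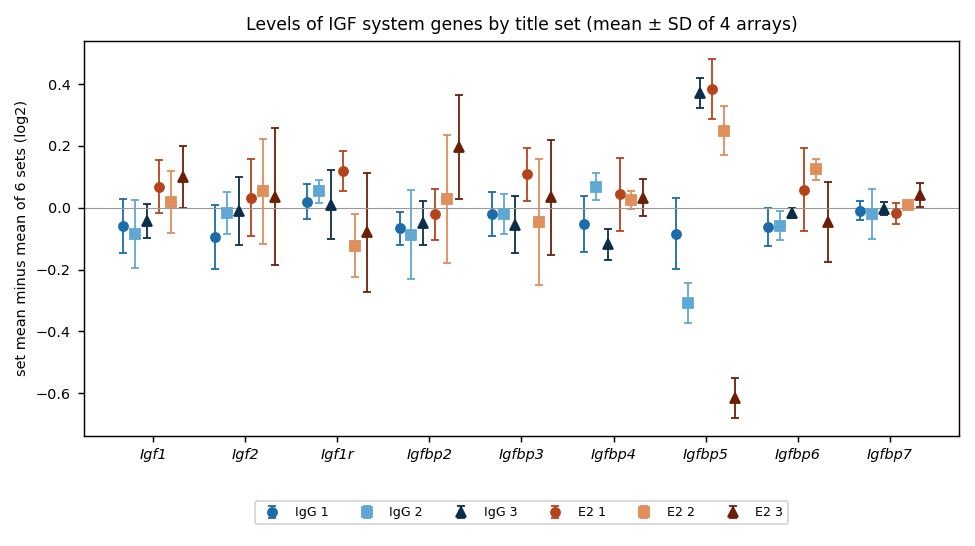
Mean ± SD of the 4 arrays of each title set for the 9 genes, as log2 intensity minus the gene's mean over the 6 sets. The set means of Igfbp5 span 1.00 log2, against 0.06 to 0.29 for the other 8 genes.

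Igf1 was dim on every array, between the 31.8th and the 38.6th percentile. In the IgG arm its values for C, 1g, 2g and ug were 5.68, 5.50, 5.68 and 5.68 in set 1, 5.44, 5.66, 5.68 and 5.66 in set 2, and 5.58, 5.67, 5.71 and 5.63 in set 3. In the E2 arm they were 5.79, 5.76, 5.85 and 5.64 in set 1, 5.75, 5.57, 5.80 and 5.74 in set 2, and 5.78, 5.74, 5.94 and 5.71 in set 3. The 3 arrays at 2g of the E2 arm lay above its other 9, while in the IgG arm no environment stood clear of all the others. The share of all genes with such an order at 2g was not counted. Igf1 did not reach the filter, so no call was made.

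Igf2, the second ligand, encodes a growth factor best known from fetal growth. Its IgG values for C, 1g, 2g and ug were 6.80, 6.95, 6.85 and 7.04 in set 1, 6.91, 6.96, 7.07 and 7.02 in set 2, and 6.84, 7.06, 6.99 and 7.09 in set 3. The incubator array was the lowest of each IgG set. Its E2 values were 7.13, 7.04, 6.86 and 7.12 in set 1, 7.11, 6.90, 7.27 and 6.95 in set 2, and 7.16, 6.74, 7.25 and 7.01 in set 3. There the 3 incubator arrays lay between 7.11 and 7.16, above all 3 of the 1g arrays. Set against the incubator, the log2 change of Igf2 was 0.13 ± 0.09 (SE) at 1g, 0.12 ± 0.09 at 2g and 0.20 ± 0.09 at ug in the IgG arm. In the E2 arm it was -0.24 ± 0.09, -0.01 ± 0.09 and -0.11 ± 0.09. None passed (limma adjusted p = 0.716 or above). For E2 at 1g the 95% interval was -0.44 to -0.04, and without E2 replicate 3 the change was -0.15. Against 1g on the platform, Igf2 in the E2 arm differed by 0.23 ± 0.09 at 2g (limma adjusted p = 1), with values of -0.18, 0.37 and 0.51 in sets 1, 2 and 3, so the sets did not share a direction. It was 0.44 without E2 replicate 1 and 0.10 without E2 replicate 3.

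Igf1r, the receptor, had its IgG values for C, 1g, 2g and ug at 8.55, 8.58, 8.52 and 8.45 in set 1, 8.53, 8.54, 8.55 and 8.61 in set 2, and 8.52, 8.55, 8.63 and 8.36 in set 3. Its E2 values were 8.61, 8.57, 8.72 and 8.59 in set 1, 8.28, 8.49, 8.45 and 8.32 in set 2, and 8.60, 8.38, 8.55 and 8.17 in set 3. The lowest arrays were ug of set E2 3 and C of set E2 2, and the environments overlapped in each arm. The change against the incubator ran from -0.14 ± 0.10 (ug, E2) to 0.08 ± 0.10 (2g, E2), with limma adjusted p = 0.966 or above.

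Igfbp4 protein blocks IGF action until PAPP-A cleaves it. The IgG values of Igfbp4 for C, 1g, 2g and ug were 9.99, 10.20, 10.05 and 10.08 in set 1, 10.14, 10.22, 10.23 and 10.23 in set 2, and 9.94, 10.04, 10.06 and 10.02 in set 3, with C the lowest in each set. Its E2 values were 10.13, 10.33, 10.19 and 10.05 in set 1, 10.15, 10.20, 10.15 and 10.13 in set 2, and 10.21, 10.20, 10.08 and 10.16 in set 3, with no such order. The change at 1g in the IgG arm was 0.13 ± 0.07 (limma adjusted p = 0.814). With the set as a block its 95% interval was 0.02 to 0.24, and limma's adjusted p of 0.261 still did not pass. Igfbp6, whose protein prefers IGF-2, lay between 10.71 and 10.84 on the IgG arrays and between 10.63 and 11.05 on the E2 arrays. Its changes against the incubator ran from 0.01 ± 0.08 (2g, IgG) to 0.13 ± 0.08 (1g, E2).

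Igfbp2 and Igfbp3 were dim. Igfbp2 lay between 6.52 and 6.86 on the 12 IgG arrays and between 6.65 and 7.22 on the 12 E2 arrays. The C array of set E2 3 (7.22) and the ug array of set E2 2 (7.11) were its highest values, and its incubator and platform arrays overlapped in the E2 arm. In the IgG arm its incubator arrays (6.68, 6.52 and 6.65) lay below all 9 platform arrays, an order seen in 1.73% of genes. Igfbp3, the main carrier of IGF in blood, lay between 6.02 and 6.24 on IgG arrays and between 5.89 and 6.41 on E2 arrays. It reached the 40th percentile on 23 of 24 arrays. In the IgG arm the changes at ug were 0.19 ± 0.11 for Igfbp2 and 0.12 ± 0.10 for Igfbp3, and neither passed (limma adjusted p = 0.960 and 0.974).

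Igfbp7, a binding protein of low affinity for IGF that is also a matrix and vessel protein, varied least. Its IgG values for C, 1g, 2g and ug were 12.78, 12.70, 12.75 and 12.75 in set 1, 12.83, 12.65, 12.76 and 12.68 in set 2, and 12.77, 12.75, 12.75 and 12.73 in set 3. C was the highest array of each IgG set. Its E2 values lay between 12.69 and 12.84. At 1g in the IgG arm the change was -0.09 ± 0.04 (unadjusted p = 0.0176, limma adjusted p = 0.800). With the set as a block limma's adjusted p was 0.192. The change was -0.05 without IgG replicate 2, and -0.05 after quantile normalization.

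**Figure D2:**
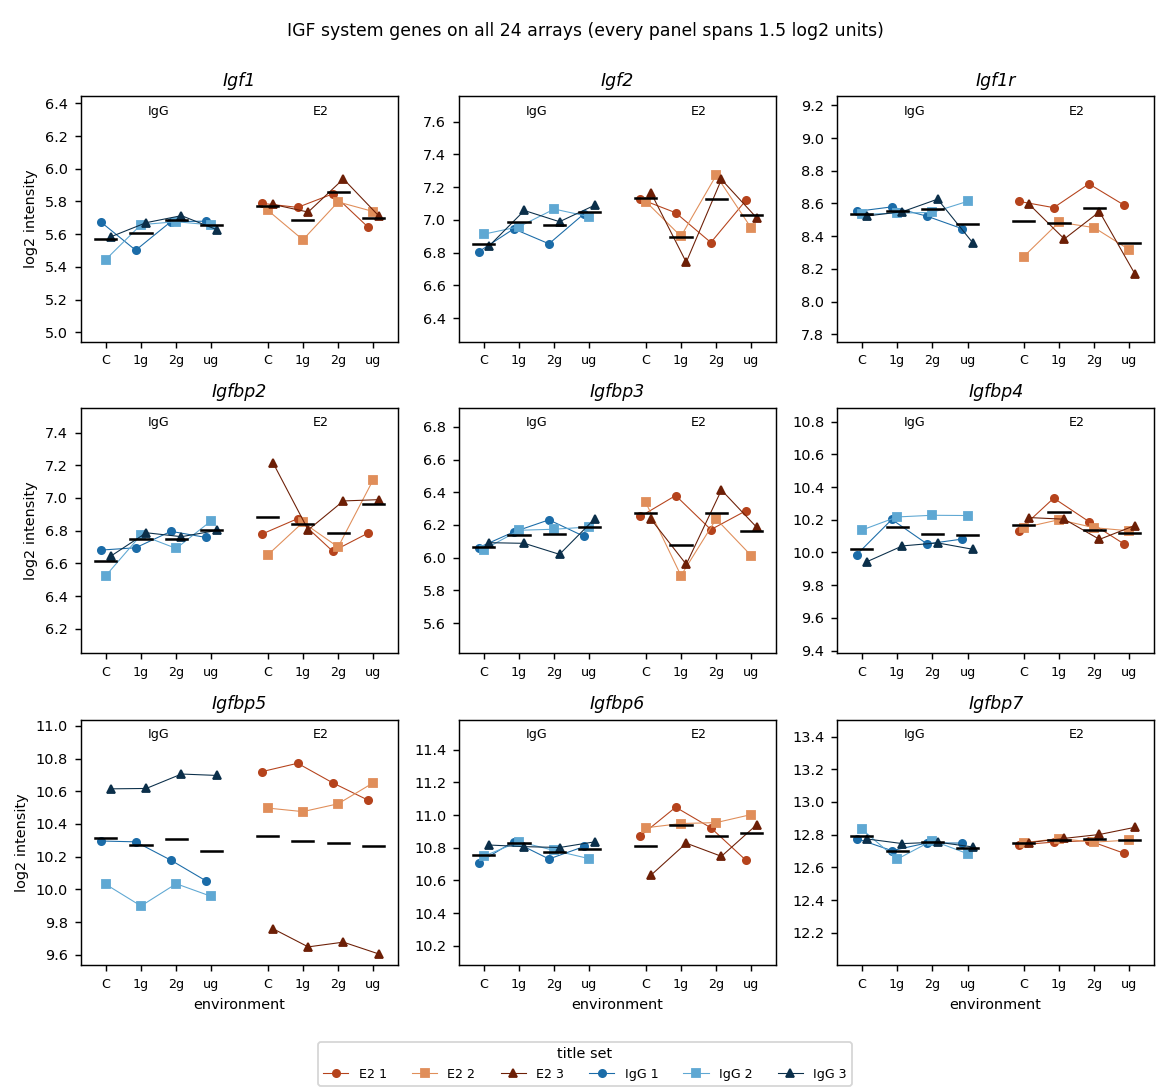
Log2 intensity of the 9 genes on all 24 arrays, by environment (C incubator, then 1g, 2g and ug) in the IgG arm (left of each panel) and the E2 arm (right). Points and thin lines are the title sets, black bars the means of 3 arrays, and only in Igfbp5 do the sets lie far apart.

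Limma called 0 of the 8 tested members in the 6 comparisons of a position with the incubator, as it called 0% of all genes. At an unadjusted p below 0.05 there was 1 member at 1g in the IgG arm (Igfbp7) and 1 at 1g in the E2 arm (Igf2), among 6.11% and 3.13% of all genes. At 2g and ug there were 0 members, among 8.78% and 5.16% of all genes in the IgG arm and 1.97% and 4.22% in the E2 arm. With the set as a block, limma called 0.0483% of genes at 1g in the IgG arm, none of them a member, and 0% in the other 5.

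Counts of members whose 3 position arrays did not overlap with the 3 incubator arrays were read against the same share of all genes. In the IgG arm 2 members were higher at 1g (Igf2 and Igfbp2, against 7.91% of genes), 1 at 2g (Igfbp2, 10.3%) and 3 at ug (Igf2, Igfbp2 and Igfbp3, 7.36%). Igfbp7 was lower without overlap at all 3 positions, as were 7.96%, 8.97% and 5.69% of genes. In the E2 arm Igf2 was lower at 1g without overlap (3.69% of genes), and Igfbp7 was higher at 1g (1.83%) and 2g (1.97%). None of these differences passed the test. In the IgG arm 6, 6 and 5 of the 8 members had a positive change at 1g, 2g and ug, and the medians of the members were 0.07, 0.05 and 0.06. The medians of all 14489 genes were 0.01, 0.00 and -0.00, with 54%, 50% and 49% positive. For genes under the median level of 8.41, where Igf2, Igfbp2 and Igfbp3 lie, the medians were 0.04, 0.06 and 0.04. Of those genes 64%, 64% and 63% had a positive change. The part of level in these changes was not tested. In the E2 arm 3 of 8 had a positive change at each position, with medians of -0.02, -0.00 and -0.05 against -0.02, -0.01 and -0.03 for all genes. The IgG incubator group held the lowest mean of 5 of the 8 members and of 28.8% of all genes. It held the highest mean of 1 member (Igfbp7) and of 27.4% of all genes. The 3 comparisons of an arm share their incubator arrays. Means of the 3 positions together against the incubator gave 0% of genes called in either arm by limma and 0 members, with 1 member (Igfbp7) in the IgG arm and 0 in the E2 arm at an unadjusted p below 0.05, among 9.99% and 2.8% of genes. With the block 0.704% of genes were called in the IgG arm and 0% in the E2 arm, again with 0 members.

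**Figure D3:**
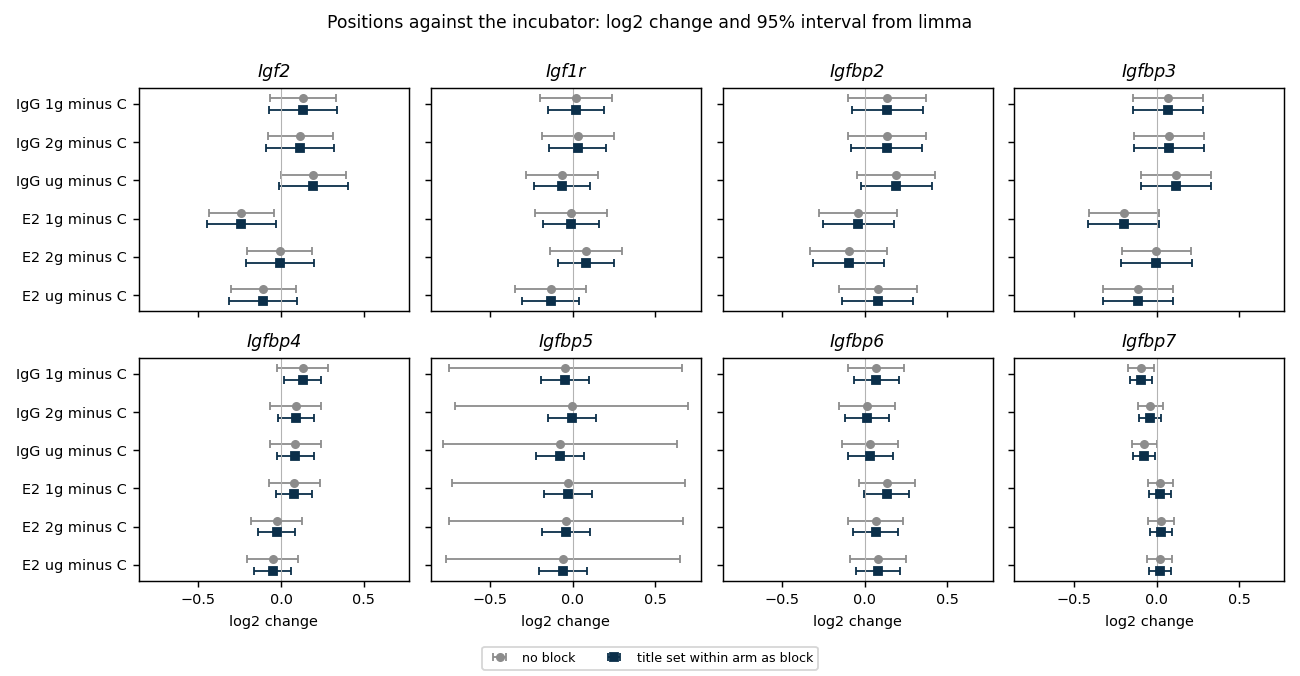
Log2 change of the 8 tested genes at each platform position against the incubator, with the 95% interval from limma without a block (grey circles) and with the title set within an arm as a block (dark squares). For Igfbp5 the interval at 1g in the IgG arm narrows from -0.75 to 0.66 down to -0.19 to 0.10.

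At 2g and ug against 1g, which share the platform and differ in position, limma called 0% of genes in both arms and 0 members. At an unadjusted p below 0.05 there was 1 member at 2g in the E2 arm (Igf2), among 2.46% of genes. There were 0 at ug in that arm (3.54% of genes) and 0 at 2g and ug in the IgG arm (1.79% and 1.12%). In the IgG arm Igfbp7 was higher at 2g than at 1g without overlap, as were 3.78% of genes. Igfbp6 was lower there without overlap, as were 4.18% of genes. Their changes of 0.06 and -0.06 did not pass limma's test. Igfbp4 in the E2 arm measured 10.33, 10.20 and 10.20 at 1g, above all its arrays at 2g and at ug, as did 2.18% and 2.55% of genes. The difference was -0.11 ± 0.07 at 2g and -0.13 ± 0.07 at ug, and neither passed (limma adjusted p = 1), with or without the block.

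The antibody comparison asked how E2 cells differed from IgG cells in the same environment. In the incubator 2.92% of genes were called by limma, and 0 of the 8 members. At an unadjusted p below 0.05 there were 2 members (Igf2 and Igfbp2), among 29.9% of genes. Igf2 came closest, with 7.13, 7.11 and 7.16 on the E2 arrays against 6.80, 6.91 and 6.84 on the IgG arrays, which do not overlap. Nor did those of Igfbp3 (6.25, 6.34 and 6.23 against 6.06, 6.05 and 6.09), and 19% of genes were higher without overlap. Igfbp7 was lower without overlap, as were 16.1% of genes. The difference in Igf2 was 0.28 ± 0.09 (95% interval 0.08 to 0.48, limma adjusted p = 0.073). Without E2 replicate 1 it was 0.29 and passed (limma adjusted p = 0.0339). After quantile normalization it was 0.21 and after median centring 0.19, and neither passed (limma adjusted p = 0.169 and 0.136). Igfbp2 differed by 0.27 ± 0.11 (limma adjusted p = 0.126), with 7.22 in set E2 3 far above 6.78 and 6.65. Without E2 replicate 3 it was 0.10 (limma adjusted p = 0.450), and after quantile normalization 0.16 and median centring 0.17. Igfbp3 differed by 0.21 ± 0.10 and Igfbp4 by 0.14 ± 0.07, neither past the test. Igf2, Igfbp2 and Igfbp3 lie under the median level of 8.41, and genes under that level had a median difference of 0.11 in this comparison, against -0.04 for those above it. The part of level in these differences was not tested. At 1g, 2g and ug limma called 0% of genes between the arms and 0 members. At an unadjusted p below 0.05 there were 0 members, against 12.5%, 4.32% and 12.9% of genes. Igfbp2 and Igfbp7 were higher with E2 at 1g without overlap, as were 4.71% of genes.

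The arms were also compared over the 3 set means in each. Igf2 averaged 7.05 ± 0.01 (SD, n = 3 sets) with E2 and 6.96 ± 0.05 with IgG, and Igfbp2 averaged 6.87 ± 0.12 and 6.73 ± 0.02. In both genes the E2 sets lay above all IgG sets, as did those of Igf1 (5.75 ± 0.04 and 5.63 ± 0.02), and as 15.4% of all genes tested did. The exact permutation test gave p = 0.1 for these 3, the smallest it can give with 3 against 3, and 0.3 after adjustment over the 9 genes. Igfbp5 averaged 10.29 ± 0.54 and 10.28 ± 0.35, with p = 0.9 in the exact permutation test. Limma on the set means called 0% of genes and 0 members, with 0 members at an unadjusted p below 0.05, against 21.6% of genes.

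Whether the antibody altered the response to a position was tested as the difference between arms of the change against the incubator. Limma called 0% of genes at each position, and 0 members. For Igf2 the difference was -0.37 ± 0.13 at 1g (unadjusted p = 0.0114, limma adjusted p = 0.974) and -0.30 ± 0.13 at ug (limma adjusted p = 1). For Igfbp7 it was 0.12 ± 0.05 at 1g (unadjusted p = 0.0345), and 0.07 without IgG replicate 2. These were the members with an unadjusted p below 0.05, 2 at 1g, 0 at 2g and 1 at ug, among 4.7%, 5.98% and 3.61% of genes.

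Igfbp5 is treated last and in most detail. For C, 1g, 2g and ug it measured 10.30, 10.29, 10.18 and 10.05 in set IgG 1, 10.03, 9.90, 10.03 and 9.96 in set IgG 2, and 10.61, 10.62, 10.71 and 10.70 in set IgG 3. In the E2 arm it measured 10.72, 10.77, 10.65 and 10.55 in set E2 1, 10.50, 10.48, 10.52 and 10.65 in set E2 2, and 9.76, 9.65, 9.68 and 9.61 in set E2 3. All arrays of sets IgG 3, E2 1 and E2 2 lay at 10.48 or above, and all arrays of the other 3 sets lay at 10.30 or below. The set means were 10.20 ± 0.12, 9.98 ± 0.07 and 10.66 ± 0.05 (SD, n = 4 arrays) in the IgG arm and 10.67 ± 0.10, 10.54 ± 0.08 and 9.67 ± 0.06 in the E2 arm. That range of 1.00 log2 was exceeded by 151 of 14489 genes, 1.04%, and the median gene had a range of 0.25. The range of 0.09 over the 8 group means was exceeded by 96.8% of genes. The SD of Igfbp5 was 0.46 within groups and 0.08 within sets.

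In tests between sets, limma called Igfbp5 in 4 of 6 comparisons. In the IgG arm set 3 was higher than set 1 by 0.45 ± 0.06 (limma adjusted p = 9.75e-06), where 24.1% of all genes were called, and higher than set 2 by 0.68 ± 0.06 (limma adjusted p = 4.43e-08), where 25.9% were called. In the E2 arm set 3 was lower than set 1 by 1.00 ± 0.06 (limma adjusted p = 9.00e-11, 35.7% of genes called), and its difference from set 2 was -0.86 ± 0.06 (limma adjusted p = 8.47e-10, 34.9% called). Sets 1 and 2 differed by -0.22 ± 0.06 in the IgG arm (limma adjusted p = 0.380, 0.0621% called), without overlap as in 0.946% of genes, and by -0.14 ± 0.06 in the E2 arm (limma adjusted p = 0.265, 2.6% called). So number 3 was the high set in the IgG arm and the low set in the E2 arm. A larger change than that of Igfbp5 was seen in 0.580% of genes between E2 3 and E2 1 and in 3.33% between IgG 3 and IgG 1. These tests set 4 arrays of 1 set against 4 of another, and what distinguishes the sets is not given in the sources used here.

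The other members moved less between sets, and 3 further calls were made. Igfbp4 was lower in set IgG 3 than in IgG 2 by -0.19 ± 0.05 (limma adjusted p = 0.00442), and the 2 sets did not overlap, as in 15.1% of genes. Igf1r was lower in set E2 3 than in E2 1 by -0.20 ± 0.07 (limma adjusted p = 0.0322), a call lost after median centring (limma adjusted p = 0.0646) and without the 1g, 2g or ug arrays (limma adjusted p = 0.0776, 0.0972 and 0.204). Without the ug arrays its difference was -0.13. Igfbp6 was lower in set E2 3 than in E2 2 by -0.17 ± 0.06 (limma adjusted p = 0.0234), a call lost after median centring (limma adjusted p = 0.0586) and without the C or 2g arrays (limma adjusted p = 0.184 and 0.132). Igf1r differed between E2 2 and E2 1 by -0.24 ± 0.07 with arrays that did not overlap, as in 5.2% of genes, and did not pass (limma adjusted p = 0.0733). Igfbp2 differed between E2 3 and E2 1 by 0.22 ± 0.09 (limma adjusted p = 0.0616), opposite in sign to Igfbp5.

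Igfbp2 and Igfbp5 are neighbours on chromosome 1, on opposite strands, with 0 annotated genes between them (RefSeq, GRCm38.p6). Their promoter windows, the 250 bases before the RefSeq start, are shown because the neighbours differed in how far they varied between sets. The Igfbp5 window is chr1:72874866-72875115 on the minus strand and the Igfbp2 window, of the first of its starts in the table, is chr1:72824230-72824479 on the plus strand. Sequences run 5′ to 3′, and capitals mark matches to a TATA box (TATAAA), a GC box (GGGCGG), an AP-1 site (TGANTCA) or an AP-2 site (GCCNNNGGC), searched on both strands.
Igfbp5: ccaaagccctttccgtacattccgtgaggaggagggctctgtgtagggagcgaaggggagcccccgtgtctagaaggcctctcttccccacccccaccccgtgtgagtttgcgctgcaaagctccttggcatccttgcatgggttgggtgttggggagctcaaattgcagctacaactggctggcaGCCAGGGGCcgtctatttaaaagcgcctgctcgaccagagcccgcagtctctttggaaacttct
Igfbp2: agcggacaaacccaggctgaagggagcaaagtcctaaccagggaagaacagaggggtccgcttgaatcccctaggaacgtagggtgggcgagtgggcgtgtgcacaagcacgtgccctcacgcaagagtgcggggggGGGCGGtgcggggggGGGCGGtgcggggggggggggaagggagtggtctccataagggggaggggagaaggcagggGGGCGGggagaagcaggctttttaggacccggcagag
The Igfbp5 window held 1 match to the AP-2 site, 64 bases before the start, and none to the other 3 motifs. The Igfbp2 window held 3 matches to the GC box, the nearest 37 bases before the start, and none to the other motifs in capitals. The window of the second Igfbp2 start in the table, which is not printed, held 0 GC boxes and 1 AP-1 match, 39 bases before that start. No match overlapped another. Of 32851 promoter windows of this length, 13.7% held the AP-2 letters, 32.7% the GC box, 12.4% the TATA box and 6.75% the AP-1 letters. GC content was 58.8% for Igfbp5 and 67.2% for Igfbp2, against a median of 52.4%. Such matches describe letters and show no binding.

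The 5 tested genes most like Igfbp5, by the root mean square of the difference in log2 deviation over the 24 arrays, were Xylt1 (0.110), Col5a2 (0.117), Abcb4 (0.118), Nrp1 (0.122) and Maml3 (0.123). They were chosen for this likeness, which fixes that they follow the sets as Igfbp5 does. Gja1, the gene of connexin 43, was high in the same sets, with set means of 11.56, 11.50 and 11.94 in the IgG arm and 11.82, 11.86 and 11.42 in the E2 arm. It was 1 of 6 osteocyte markers tested, and was called the same way as Igfbp5. Pdpn was called the opposite way, lower in IgG 3 than in IgG 1 and higher in E2 3 than in E2 2. Cd44 was called lower in E2 3 than in E2 1. Both measured osteoblast markers that passed the filter, Col1a1 and Alpl, were also called higher in IgG 3 and lower in E2 3 by limma. The mean of the 4 measured osteoblast markers lay between 7.76 and 8.04 on the arrays of IgG 3, E2 1 and E2 2 and between 7.46 and 7.66 on the others, with the defining markers Sp7 (5.62) and Ibsp (5.06) dim. For the 6 measured macrophage markers the mean lay between 6.80 and 7.08 in the former sets and between 6.97 and 7.19 in the latter. Of the 4 macrophage markers tested, Cd68 had set means of 9.12, 9.14 and 8.09 in the IgG arm and 8.26, 8.21 and 9.14 in the E2 arm, and was called the opposite way to Igfbp5, as was Lyz2. Csf1r was called lower in IgG 3 than in both other IgG sets, and Cd14 was called the same way as Igfbp5. The chondrocyte marker Sox9, 1 of 3 tested, was also called the same way, with set means of 9.51, 9.38 and 10.30 in the IgG arm and 10.53, 10.26 and 9.46 in the E2 arm. The mean of the 5 measured chondrocyte markers lay between 7.12 and 7.45 in the former sets and between 6.78 and 7.23 in the latter. The adipocyte marker Fabp4, 1 of 3 tested, was called the opposite way, with set means of 10.27, 10.30 and 9.97 and of 9.63, 9.82 and 10.30. The muscle marker Acta1, 1 of 5 tested, was called higher in IgG 3 than in both other IgG sets, and lower in E2 3 than in E2 2. The muscle marker Des was called higher in E2 3 than in E2 2. Of the 3 endothelial markers tested, 0 were called by limma in these 4 comparisons. The part of these markers in the range of Igfbp5 was not tested.

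A list of 44 further genes of the pathway was examined, of which 36 passed the filter. In the positions against the incubator limma called 0 of them, as of all genes, and in E2 against IgG it called 1, in the incubator: Sos1, an exchange factor that couples receptors to RAS, was lower with E2 by -0.51 ± 0.12 (limma adjusted p = 0.0431). That is 1 of 36, near the 2.92% of all genes called there. Between title sets many were called. Of the 36, limma called 10 higher and 1 lower in IgG 3 than in IgG 1, where 10.8% of all genes were called higher and 13.3% lower. Against IgG 2 it called 11 higher and 1 lower, with 10.6% and 15.3% of all genes. In E2 3 against E2 1 it called 3 higher and 15 lower, with 18.4% and 17.3% of all genes, and against E2 2 it called 5 and 10, with 18.7% and 16.3%.

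The proteases and their inhibitors held the largest of these differences. Plat, tissue plasminogen activator, which makes plasmin, a protease that cleaves binding proteins, was higher in IgG 3 by 1.10 ± 0.10 and 1.12 ± 0.10 (against IgG 1 and IgG 2) and lower in E2 3 by -1.28 ± 0.10 and -1.29 ± 0.10 (against E2 1 and E2 2). Stc1, a stanniocalcin that inhibits PAPP-A, differed the same way, by 0.46 ± 0.08, 0.85 ± 0.08, -0.96 ± 0.08 and -1.05 ± 0.08. Stc2, the other stanniocalcin, differed the opposite way, by -0.76 ± 0.06, -0.76 ± 0.06, 0.89 ± 0.06 and 0.83 ± 0.06. Limma's adjusted p was 2.28e-04 or below for all 12 values. Pappa itself did not pass the filter (5.84). Pappa2, on the same list, passed it with a mean of 5.98, where the filter lay at 5.90 to 6.08 across arrays. Adam9 was higher in E2 3 by 0.29 ± 0.05 and 0.34 ± 0.05.

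Most of the 21 signalling genes tested lie above the median level of 8.41. Of the 7245 genes above it, limma called 1214 higher and 1396 lower in IgG 3 than in IgG 1. In E2 3 against E2 1 it called 1886 of them higher and 1862 lower. Of the signalling genes it called 8 higher and 0 lower in IgG 3 than in IgG 2, against 10.6% and 15.3% of all genes. In E2 3 against E2 2 it called 1 higher and 7 lower, against 18.7% and 16.3% of all genes. It called 7 higher and 0 lower in IgG 3 than in IgG 1, against the 10.8% and 13.3% of all genes. It called 0 higher and 12 lower in E2 3 than in E2 1, against 18.4% and 17.3%. Foxo1, a transcription factor that AKT inhibits, was among both, by 0.35 ± 0.06 and -0.46 ± 0.06, as were Socs3 (0.36 ± 0.07 and -0.50 ± 0.07), the growth control kinase Mtor (0.23 ± 0.06 and -0.52 ± 0.06), the adaptor Shc1 (0.24 ± 0.04 and -0.25 ± 0.04) and Akt2 (0.28 ± 0.06 and -0.31 ± 0.06). Ptpn1, a phosphatase of insulin and IGF receptors, differed by 0.24 ± 0.07 and -0.59 ± 0.07. Of the receptors, Ghr, through which growth hormone raises Igf1 in many tissues, differed by 0.21 ± 0.07 and -0.32 ± 0.07. Igf2r, which clears IGF-2, was lower in E2 2 than in E2 1 by -0.37 ± 0.07 and higher in E2 3 than in E2 2 by 0.23 ± 0.07.

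**Figure D4:**
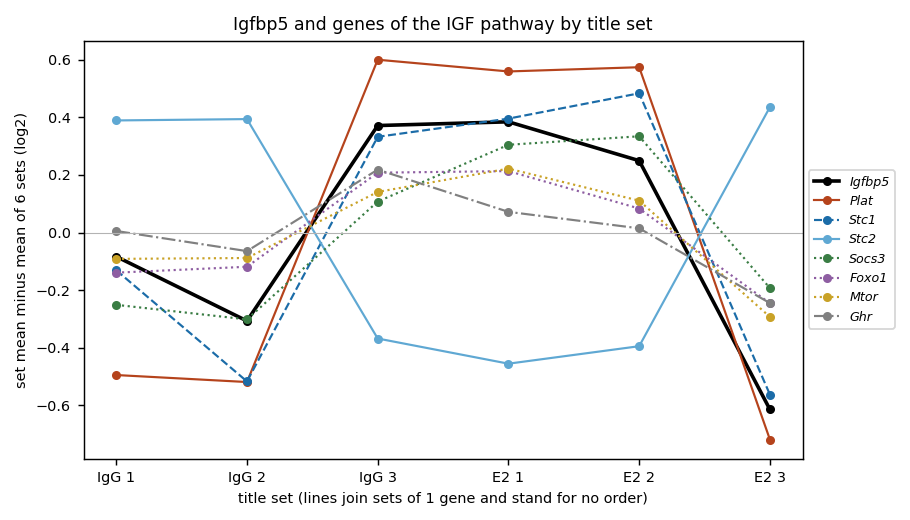
Set means of Igfbp5 and 7 genes of the pathway list, as log2 intensity minus the mean of the 6 sets. Igfbp5, Plat and Stc1 are high in sets IgG 3, E2 1 and E2 2, and Stc2 is low there.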

How the data were processed

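The authors deposited log2 intensities for 24 arrays. The unit was judged from the values (2.36 to 14.06), and MAS5 is named in the submitters' processing notes with no role or version. Scaling and genome build are not given in the sources used here. Groups were read from sample titles. Symbols came from the array's probe table, which gave 1 symbol for 21789 of 35556 rows and several for 1621. The brightest row of a gene was used. The filter, at 5.90 to 6.08 across arrays, can favour genes bright in few groups.

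Limma 3.58.1 in R 4.3.3 fitted 8 group means over all arrays (16 residual degrees of freedom), two-sided, with a variance trend and Benjamini-Hochberg adjustment over 14489 genes within a comparison, threshold 0.05. Comparisons of title sets used 6 sets and environment within arm (12 residual degrees of freedom). The code was tested on simulated data. The replicate block within arm has 6 sets. Same-numbered arrays correlated within an arm (36 of 36 pairs, 0.195 to 0.812). Between arms their correlations were negative (48 pairs, -0.748 to -0.0141), so pairing within arm comes from the values. Arrays of different numbers correlated above 0.1 in 23 of 72 pairs within an arm and in 64 of 96 between arms. All 9 genes are named, with pathway genes that were called or had a small p, from lists written from textbook knowledge. Pappa and Pappa2 were named after their values were seen. Likeness used the root mean square difference of centred log2 values. The members and lists were chosen with earlier results of these data known. Promoter sequences are RefSeq's (GRCm38.p6), found for 9 of 9 members.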

Additional observations from a re-analysis of the deposited data

Results flagged for a closer look

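Several members had changes of opposite sign in the 2 arms in every set, some of them near 0, with no interaction that passed limma's test. At 1g against the incubator, Igf2 was higher in all 3 IgG sets (0.14, 0.05 and 0.22) and lower in all 3 E2 sets (-0.08, -0.21 and -0.42), and the difference between arms was -0.37. At ug the difference for Igf2 was -0.30, with a change of only -0.006 in set E2 1. Igfbp7 was lower in the IgG sets and higher in the E2 sets at 1g, with a difference of 0.12, and at 2g, with a difference of 0.06. Its change at 2g in set E2 2 was only 0.0035. Igfbp4 was higher in the IgG sets and lower in the E2 sets at ug, with a difference of -0.14. Of all genes tested, 3.79% did so at 1g, 6.58% at 2g and 3.55% at ug.

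Single arrays stood apart from the other 3 of their title set in 5 of 54 combinations of gene and title set tested by Dixon's ratio. Chance gives about 1 in 20 for independent draws of 1 kind. Here the arrays of a set differ in environment and the genes share arrays, so that rate is only a rough guide. Igf1 was at 5.50 on the 1g array of set IgG 1, the others at 5.68. On the C array of set IgG 2, Igf1 was at 5.44 (others 5.66 to 5.68), Igfbp3 at 6.05 (others 6.17 to 6.19) and Igfbp4 at 10.14 (others 10.22 to 10.23). Igf1r was at 8.61 on the ug array of set IgG 2 (others 8.53 to 8.55).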

How the results depend on the processing

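The count of members called was 0 in the main setting for all comparisons but those of title sets. It became 1 without E2 replicate 1 in E2 against IgG (Igf2 in the incubator), so leaving out replicates gave 0 to 1 there. It stayed at 0 under the other alternatives, the replicate block within arm and by number included. The block within arm changed no member's call. Between title sets 7 calls became 8 after quantile normalization, 6 after median centring and 5 to 7 when the arrays of 1 environment were left out. The 4 calls of Igfbp5 held in 9 of 9 alternatives, and that of Igfbp4 too. Each member has 1 row, so taking the mean of a gene's rows, or no filter on dim rows, left these changes as they were. Igfbp2 between E2 3 and E2 1 passed after median centring (limma adjusted p = 0.0283) and without the 1g arrays (limma adjusted p = 0.0227), Igfbp7 passed there after quantile normalization (limma adjusted p = 0.00970), and Igfbp6 passed there without the ug arrays (limma adjusted p = 0.00119). Of 208 member values, quantile normalization turned the sign of 24 and median centring of 31, none of them called. Those scalings moved array medians of tested genes by at most 0.11 and 0.09. The cause of these changes was not tested. Signal limits Igf1, which was under the filter on 24 arrays, and bears on Igf2, Igfbp2 and Igfbp3.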
